A study of Mus musculus with 10 samples.

Results

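Eef1a1 and Eef1a2 are the paralogous genes for eEF1A, and they were chosen by name as 2 of the 6147 genes in a deposited table of neocortex expression. They had been picked because earlier results from this table showed their levels to differ, so their levels are described here and not tested. Their places in any order of genes or pairs below follow in part from that choice. RNA was taken from the neocortex, the layered outer part of the forebrain, of CD1 wild type mice, an outbred strain, at E12.5, E14, E15.5 or E17, or at P0, where E counts days of gestation and P0 is the day of birth. Each stage had 2 libraries, 10 in all, and no group carried a transgene, deletion or treatment. The tissue was frozen and ground in a detergent buffer, the lysate was spun clear, and poly(A) RNA of the supernatant was sequenced with a stranded kit. The duplicates are called biological by the submitters, but the number of animals or litters behind each is not given, so the spread between them may be partly technical.

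eEF1A is a GTPase that carries each aminoacyl-tRNA to the ribosome during elongation, and the eEF1B complex then recharges it with GTP. Eef1a1 is expressed in nearly all cell types, while Eef1a2 is known for neurons, heart and skeletal muscle. In rodents the brain and muscle are known to turn to Eef1a2 after birth, with Eef1a1 lost from neurons and muscle fibres.

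The 250 bases upstream of the annotated start of each gene are shown because they differ in base composition, and they come from RefSeq on GRCm38.p6, written 5′ to 3′ on the gene's strand. Both genes lie on the minus strand, Eef1a1 upstream at chr9:78481725-78481974 and Eef1a2 upstream at chr2:181157016-181157265. Capitals mark GGGCGG, the core of a GC box, read here on the opposite strand.
Eef1a1: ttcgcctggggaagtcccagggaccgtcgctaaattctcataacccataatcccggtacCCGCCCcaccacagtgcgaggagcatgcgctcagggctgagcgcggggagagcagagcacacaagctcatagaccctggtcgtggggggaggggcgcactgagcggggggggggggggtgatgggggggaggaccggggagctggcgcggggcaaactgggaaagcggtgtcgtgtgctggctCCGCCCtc
Eef1a2: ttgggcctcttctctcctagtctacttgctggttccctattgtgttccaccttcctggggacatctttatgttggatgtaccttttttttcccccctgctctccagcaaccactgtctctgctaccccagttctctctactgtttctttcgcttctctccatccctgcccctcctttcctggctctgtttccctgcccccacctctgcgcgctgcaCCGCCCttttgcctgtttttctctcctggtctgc
The Eef1a1 sequence was 68% G or C with 18 CpG dinucleotides, and GGGCGG began at positions -191 and -8 from the start. The Eef1a2 sequence was 54% G or C with 4 CpG dinucleotides, and GGGCGG began at position -34. Pyrimidines made up 76.8% of the Eef1a2 sequence and 40.4% of the Eef1a1 sequence. Of 32817 such windows in the RefSeq table, 99.9% had a lower pyrimidine content than Eef1a2, and the median window had 50%.

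Motifs were searched on both strands of the 300 bases from 250 before to 50 after each start. GGGCGG occurred in 35.6% of all such windows. The letters TATATAA, which resemble a TATA box, began at base 24 of the annotated Eef1a1 transcript and were found in 3.25% of all windows. They are printed in capitals with its flanks from chr9:78481686-78481709, since they lie downstream of the annotated start.
Eef1a1 window: gagaacggTATATAAgtgcggcag
CAGCTG, an E-box, was found at base 44 of the Eef1a2 transcript and in 16.3% of all windows. TATAAA (13.6% of windows), CCAAT (37.4%) and CAGCACC (7.14%), the core of the element bound by the neuronal repressor REST, were not in either window.

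In GENCODE M21 the main Eef1a1 transcript spans chr9:78478449-78481724, with 8 exons, 1794 bases and 1389 coding bases. The single Eef1a2 transcript spans chr2:181147653-181157014, with 8 exons, 2084 bases and 1392 coding bases. The coding sequences matched at 1113 of 1389 aligned bases (80.1%), and 81.2% of the 276 mismatches were at codon position 3. At that position, 51.8% of Eef1a1 codons and 72.6% of Eef1a2 codons held G or C. Reads of the pair can therefore be told apart from each other over much of their length: Eef1a2 shared 0 of its 2035 windows of 50 bases with any other annotated gene. Eef1a1 shared 1057 of 1745 such windows (60.6%) with 21 other genes, of which 18 were pseudogenes, and 26.7% of its windows of 100 bases. The sources used here do not say how reads with several matches were counted. In this respect the level of Eef1a1 is less certain than that of Eef1a2, and so is every ratio between them. Gene length, also not given, bears on both levels. All annotated Eef1a1 exons together cover 2493 bases, against 1794 in the main transcript. Eef1a2 spans 15258 genomic bases in RefSeq, against 9362 in GENCODE M21.

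Eef1a1 was among the 4 most abundant genes of the table in every library, and its level stayed between 5009 and 6713 TPM. TPM are counts divided by gene length and scaled to a common total, so that genes can be compared within a library. For Eef1a1, E12.5 had 5984 and 6446 TPM, E14 had 6426 and 6371, E15.5 had 6477 and 6331, E17 had 5009 and 6713, and P0 had 6005 and 5884. The lowest and the highest value were both from E17, the E14 and E15.5 libraries lay above both of P0, and those of E12.5 overlapped with all. In stage order the means were 6215 ± 327, 6399 ± 38.9, 6404 ± 104, 5861 ± 1205 and 5944 ± 85.6 TPM (SD, n = 2 each). The spread at E17 exceeded every difference between these means. On the deposited TPM, the highest and lowest stage mean lay 0.14 apart on the log2(TPM + 1) scale. This was the third smallest range among the 104 genes that averaged 1000 TPM or more, whose median range was 0.55. That range rests on the E17 mean, whose libraries differed most. Only Tmsb4x (thymosin beta 4, which binds actin monomers), Gng2 (a G protein subunit) and Ptma (prothymosin alpha) exceeded Eef1a1 in any library.

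Eef1a2 began as a minor transcript and was higher at each later stage. For Eef1a2, E12.5 had 12.7 and 13.9 TPM, E14 had 24.1 and 22.9, E15.5 had 64.3 and 64.1, E17 had 77.8 and 82.5, and P0 had 142 and 141. Neighbouring stages did not overlap in any case. In stage order the means were 13.3 ± 0.84, 23.5 ± 0.82, 64.2 ± 0.16, 80.1 ± 3.31 and 141.6 ± 0.85 TPM (SD, n = 2 each), so the P0 level was 10.6 times that at E12.5. In the order by level of the 6147 genes in the table, Eef1a2 moved from places 5223 and 5149 at E12.5 to 1029 and 1037 at P0. Its difference from E12.5 to P0 was the 58th largest upward of the 6048 genes that averaged 1 TPM or more. In bulk tissue, a changed number of cells of one type and a changed amount of RNA per cell cannot be told apart.

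**Figure D1:**
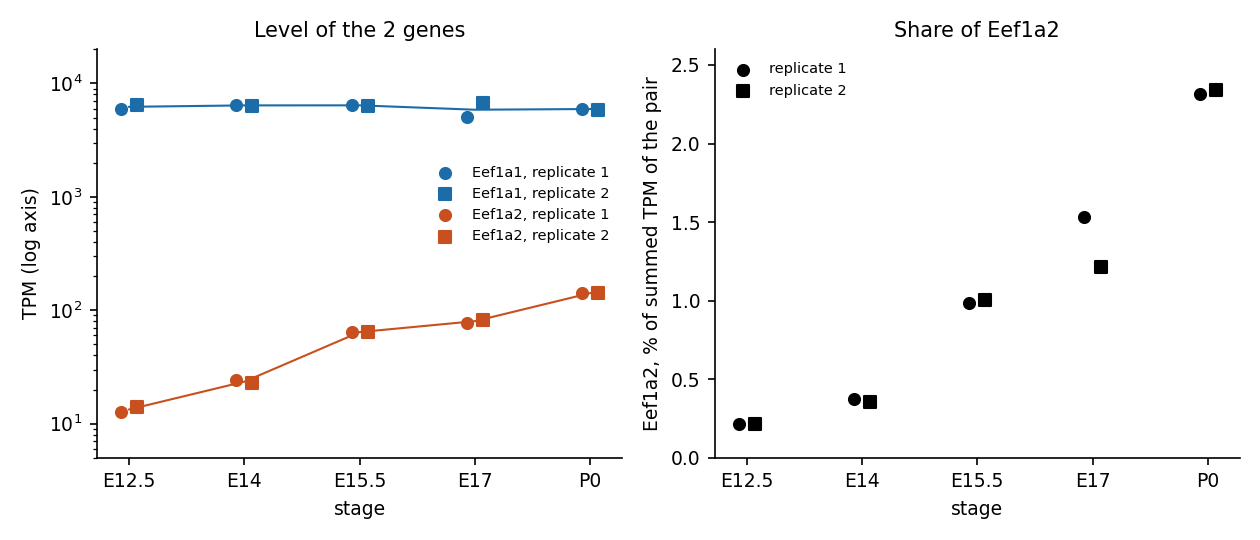
Level of Eef1a1 and Eef1a2 in TPM on a log axis (left) and Eef1a2 as a percentage of the summed TPM of the pair (right), by stage, with 1 point per library and lines through the stage means. Eef1a1 stays between 5009 and 6713 TPM while Eef1a2 goes from 12.7 to 142 TPM, and the share of Eef1a2 ends at 2.31% and 2.34%.

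The step sizes of Eef1a2 on the log2(TPM + 1) scale were, in stage order, 0.77, 1.41, 0.32 and 0.81, or 3.31 from the first stage to the last. Those of Eef1a1 were 0.04, 0.00, -0.14 and 0.04, or -0.06 in all. The median gene moved by -0.06, -0.13, 0.01 and -0.10 over the same steps, and by -0.27 from E12.5 to P0. Relative to the median gene, then, Eef1a1 lay above its E12.5 position at P0: when libraries were scaled by the median of ratios, which brings the median gene close to 0, its change was 0.21 and that of Eef1a2 was 3.58. The Eef1a1 step into E17 rests on 1 library, since it was 0.07 without replicate 1 of E17 and -0.35 without replicate 2. The Eef1a2 step into E17 was 0.36 and 0.27 in the same cases.

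Eef1a2 took over only a small part of the pair by birth, so the data do not show an exchange of one gene for the other at the level of the tissue. Of the summed TPM it held 0.213% and 0.216% at E12.5, 0.373% and 0.358% at E14, and 0.983% and 1.002% in the E15.5 libraries. It then held 1.53% and 1.21% at E17 and 2.31% and 2.34% at P0, and no neighbouring stages overlapped. Put the other way, Eef1a1 exceeded Eef1a2 by 466-fold at E12.5, and in the later stages by 273-fold, 99.8-fold, 72.9-fold and 42.0-fold. Eef1a2 gained 128 TPM between E12.5 and P0, less than the SD of 327 TPM between the Eef1a1 libraries at E12.5. The summed pair was 6229 ± 327 TPM at E12.5 and 6086 ± 86.5 at P0 (SD, n = 2 each). The share is a ratio within a library and does not move with the total that TPM are scaled to, but the low Eef1a1 value of E17 replicate 1 enters the 1.53% directly.

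On the deposited TPM, most tested genes of a list of elongation, release and rescue factors and their partners fell. So did most called genes of the table. The list also holds the kinase Eef2k, and Vars and Eef1e1, which are counted among the synthetases and scaffolds as well. From E12.5 to P0, 3 of the list's 15 tested genes rose and 10 fell at an adjusted p under 0.05 in limma. Among all 6048 genes, 27.1% rose and 51.0% fell (78.2% called). The list's median change was -0.33, next to -0.27 for all genes, so its direction was that of the table as a whole. With median-of-ratios scaling, 4 rose and 6 fell, and the list's median was -0.05. The same scaling turned the split over all genes from 1641 higher and 3087 lower to 2292 higher and 2283 lower.

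In eEF1B, the exchange complex that recharges eEF1A, the members measured here fell in limma. Eef1d, a subunit with exchange activity, was at 101 and 108 TPM at E12.5 and 62.7 and 59.5 at P0, a fall of 0.76 ± 0.08 (log2, SE; limma, adjusted p = 2.34e-06). Eef1g, the structural subunit, was at 523 and 569 TPM at E12.5 and 436 and 443 at P0, with a change of -0.31 ± 0.13 that passed narrowly (limma, adjusted p = 0.0416). The Eef1g call was lost in 12 of 20 alternative analyses, with an adjusted p of up to 0.848 in limma, among them those leaving out either library of E12.5, E14, E15.5 or P0. Vars, the valyl-tRNA synthetase that binds the complex, fell from 40.9 and 43.0 to 24.5 and 19.4 TPM (limma, adjusted p = 0.000295). Eef1e1, named for its likeness to the complex but known as a scaffold of the multi-synthetase complex, rose from 105 ± 2.04 to 140.2 ± 6.09 TPM (limma, adjusted p = 0.00644, and 0.0532 without P0 replicate 2).

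The summed pair amounted to 11.4, 11.1, 11.4 and 11.1 TPM per TPM of Eef1g in the 4 embryonic stages, and to 13.8 at P0, where the libraries (13.6 and 14.1) lay above all others. Per TPM of Eef1d the pair went from 59.6 at E12.5 to 94.9 at E15.5 and 99.7 at P0, and per TPM of Eef1e1 it went the other way, from 59.3 to 43.5. Eef1g also shared most of its sequence with pseudogenes (64.3% of windows of 50 bases), so its level carries the same doubt as that of Eef1a1.

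Eef2, which moves the ribosome along the message after each eEF1A cycle, stood at 1286 and 1403 TPM at E12.5 and 1502 and 1430 at P0, a difference of 0.13 that did not pass (limma, adjusted p = 0.218). The pair held 4.63 TPM per TPM of Eef2 at E12.5, 3.74 at E15.5 and 4.15 at P0. Eef2k, the kinase that inhibits eEF2, rose from 23.5 and 23.9 to 42.9 and 48.8 TPM (limma, adjusted p = 3.1e-05). Eif5a, which helps the ribosome past difficult peptide bonds, fell from 1894 and 1857 to 1277 and 1103 TPM (limma, adjusted p = 4.34e-05).

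Relatives of eEF1A that act in termination and rescue moved in both directions. Gspt1, the GTPase eRF3a, fell by 1.17 on the log2 scale, and its paralogue Gspt2 rose by 0.83 (limma, adjusted p = 1.07e-05 and 5.1e-05). Etf1, the release factor eRF1 that recognises stop codons, fell by 0.82 (limma, adjusted p = 1.65e-06). Gtpbp1, a GTPase related to eEF1A, fell by 0.59, the ribosome rescue factor Pelo by 0.48, the ribosome recycling factor Abce1 by 0.33 and Hbs1l, the GTPase partner of Pelo, by 0.28. The calls of Pelo, Abce1 and Hbs1l were lost with quantile normalization and with median-of-ratios scaling, and Hbs1l then turned to 0.01 in 1 of them. Without E12.5 replicate 2 the calls of Pelo and Hbs1l were lost, and without P0 replicate 1 that of Abce1. Eefsec, which delivers selenocysteyl-tRNA, did not pass (-0.20; limma, adjusted p = 0.155).

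**Figure D2:**
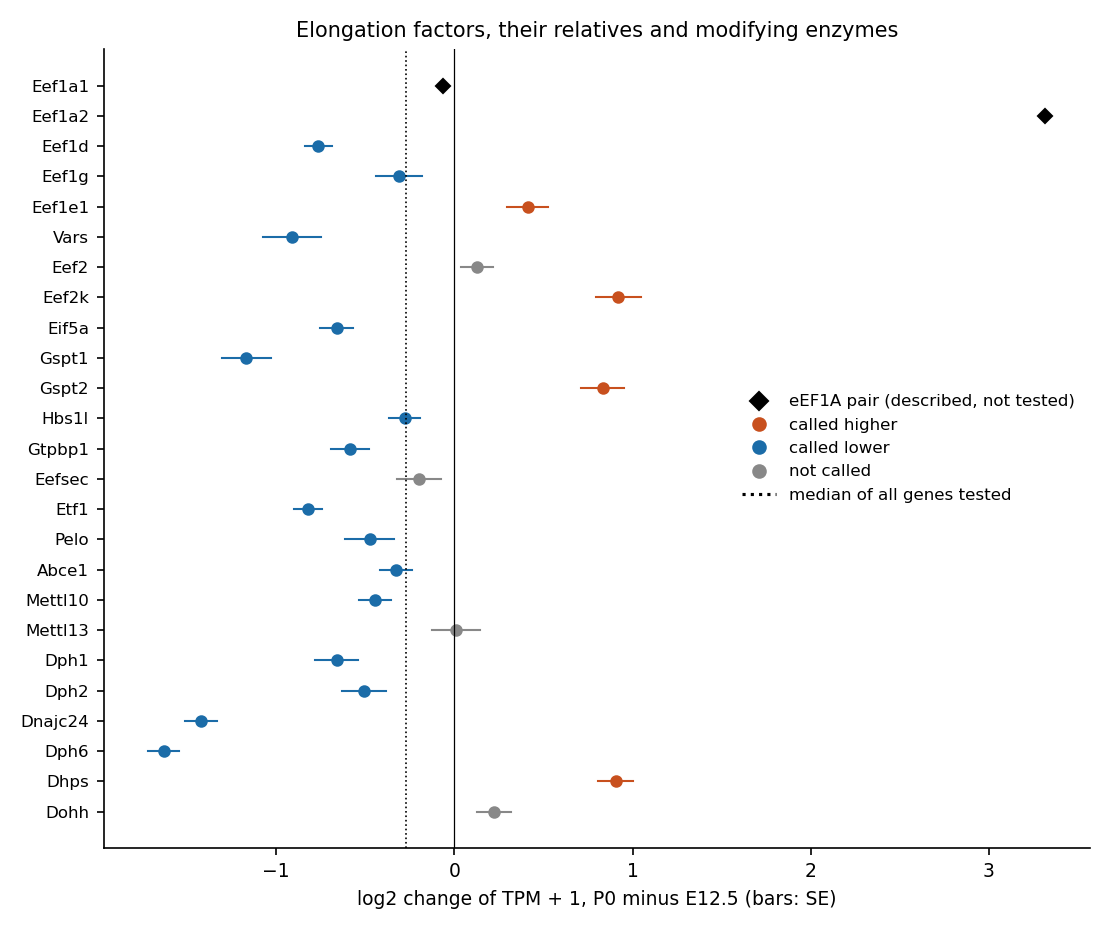
Change from E12.5 to P0 on the log2(TPM + 1) scale for the eEF1A pair, the other genes of the elongation list and enzymes that modify elongation factors. Bars are the SE from limma, and a dotted line marks the median of all genes (-0.27). Eef1a2 stands at 3.31, beyond Eef2k at 0.92, and Eef1a1 stands at -0.06, to the right of most of the list.

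The steps between neighbouring stages gave fewer calls. From E12.5 to E14, limma called 0 of the 15 genes, 4 had an unadjusted p under 0.05, and 3.95% of all genes were called higher and 4.78% lower (8.73% in all). With only the 4 libraries of these stages fitted, 7 were called lower. Without either E17 library the count was 4 lower, and without P0 replicate 1 it was 1 lower. From E14 to E15.5, the largest step of Eef1a2, limma called Eef2 and Eef2k higher and Eef1d, Eif5a, Gspt1, Etf1 and Abce1 lower, beside 18.4% and 33.3% of all genes (51.7% in all). The 7 calls became 4 without E14 replicate 1, without either E15.5 library or with median-of-ratios scaling, and 11 with only the 4 libraries of these stages. From E15.5 to E17, Gspt2 was called higher and Eef1d and Etf1 lower, beside 14.4% and 10.6% of all genes (25.0% in all). The Eef1d call was lost in 11 of 20 alternative analyses, among them the replicate block, which left 1 higher and 1 lower. There were 0 calls without either E15.5 library or with only the 4 libraries of these stages, and 9 when replicate 2 of E17 was left out. In the last step, E17 to P0, Gspt2 alone was called higher, beside 12.9% of all genes higher and 28.8% lower (41.7% in all), with 2 calls without E17 replicate 1, 6 without E17 replicate 2 and 3 without either P0 library. Median-of-ratios scaling gave 4 higher and quantile normalization 2, while the Gspt2 call was lost with only the 4 libraries of these stages (limma, adjusted p = 0.0586) and Gspt2 was not tested at a minimum mean of 5 TPM.

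Among enzymes that modify elongation factors, 1 of 8 tested rose and 5 fell from E12.5 to P0, with a median of -0.48, beside 27.1% rising and 51.0% falling among all genes. Mettl10, which methylates a lysine of eEF1A, went from 70.8 ± 3.33 to 51.8 ± 3.54 TPM (limma, adjusted p = 0.000624, lost with median-of-ratios scaling). Mettl13, which methylates eEF1A at other residues, stood at 14.5 ± 0.66 and 14.6 ± 0.61 TPM, with a difference of 0.01 that did not pass. Dph6 and Dnajc24, which act in making diphthamide on eEF2, fell by 1.63 and 1.42 on the log2 scale, and Dph1 and Dph2, of the same pathway, by 0.66 and 0.51 (limma). The Dph1 and Dph2 calls were lost with quantile normalization. Dhps, the first enzyme of hypusine formation on eIF5A, rose by 0.90, and Dohh, the next, was at 0.22 (limma, adjusted p = 4.08e-06 and 0.0517). Of 4 genes for mitochondrial translation factors, Gfm1, Gfm2 and Tsfm fell and Guf1 did not pass, with a median of -0.58, beside 51.0% of all genes falling. Tufm, of the same list, is not in the table.

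The level of Eef1a1 per TPM of the median ribosomal protein gene was 4.93, 4.71, 5.01, 5.33 and 5.45 in stage order. The E12.5 libraries gave 4.71 and 5.16, and those of E17, which differed most in Eef1a1 itself, gave 5.32 and 5.33. Both P0 libraries (5.38 and 5.52) lay above all the others. In the replicate 1 library of E17, ribosomal protein genes made up 5.95% of all TPM against 8.21% in replicate 2, and Eef1g stood at 448 against 625 TPM. Not all translation genes were lower in that library: Eef2 stood at 1601 against 1676 TPM, and Eef2k at 50.9 against 38.6 and Vars at 33.1 against 22.1 were higher. The part of library quality in these values was not tested. From E12.5 to P0, 0 of 66 ribosomal protein genes rose and 38 fell in limma, with 40 at an unadjusted p under 0.05 and a median of -0.35, beside 51.0% falling and a median of -0.27 among all genes.

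Several of 9 other paralogue pairs of the translation machinery shifted by more percentage points than eEF1A did, and none by a larger ratio. The eEF1A pair was picked because its levels differed, so its place among these pairs is a description only. Eif4a2, a helicase of initiation known to be abundant in brain, went from 19.5% to 50.6% of its pair with Eif4a1, as Eif4a2 rose by 1.51 and Eif4a1 fell by 0.57 (limma, adjusted p = 3.59e-08 and 3.62e-05). Eif4g3 went from 28.2% to 52.3% of its pair with the scaffold Eif4g1, which fell by 1.34, while Eif4g3 itself was at 0.11 and did not pass (limma, adjusted p = 2.84e-06 and 0.43). Gspt2 went from 3.49% to 14.1% of its pair with Gspt1, and Eif1b, a factor of start codon selection, from 23.8% to 32.3% of its pair with Eif1. The log2 change of the ratio within the pair was 3.47 for Eef1a2, 2.19 for Gspt2, 2.08 for Eif4a2 and 1.48 for Eif4g3. The 2.11 percentage points gained by Eef1a2 compare with 31.1 for Eif4a2 and 24.1 for Eif4g3.

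The remaining pairs moved little or the other way. Eif4e2 held 28.2% and 29.2% of its pair with the cap-binding protein Eif4e, and the Eif3j2 libraries overlapped. The ribosomal protein-like genes Rpl22l1 and Rpl7l1 went down in share, from 22.4% to 11.5% and from 13.4% to 7.35%, and that of Rps27l fell by 6.14 points to 6.39%. Eif4a1, Rps27, Rpl7, Rpl22l1 and both Eif3j genes share between 53.3% and 98.6% of their windows of 50 bases with other genes, so their shares depend on how such reads were counted.

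**Figure D3:**
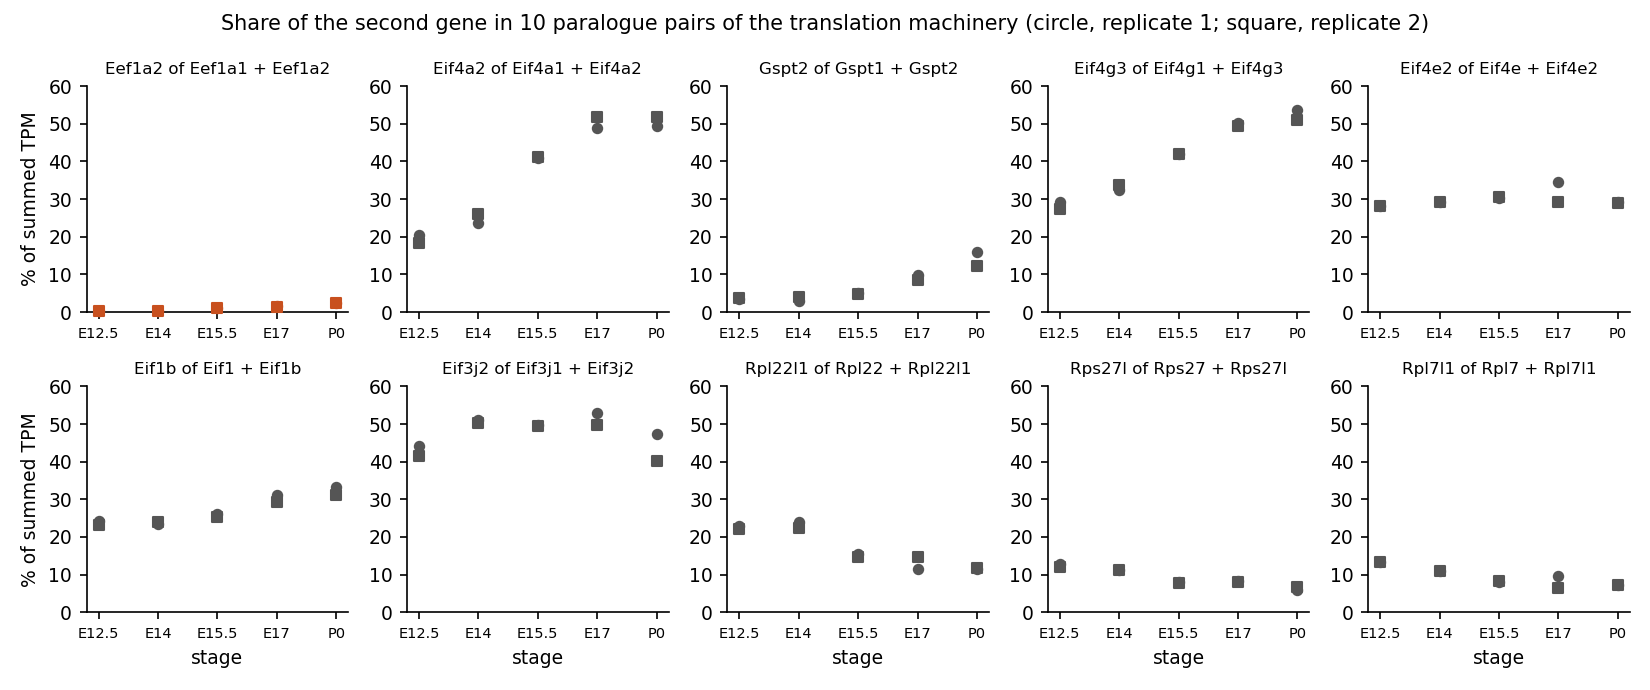
Share of the second gene in the summed TPM of 10 paralogue pairs, in percent, by stage, with 1 point per library. Eef1a2 stays at or below 2.34%, while Eif4a2 and Eif4g3 pass 50% in some libraries by P0.

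Eef1a2 increased more than most genes of a list of neuronal maturation. All 18 tested genes of that list rose from E12.5 to P0 in limma, beside 27.1% of all genes, with a median of 2.31, and their summed level went from 2201 ± 60.6 to 11598 ± 84.5 TPM (SD, n = 2 each). The 3.31 of Eef1a2 was above 16 of them, among them Snap25 (3.04), a protein of synaptic vesicle fusion, and Tubb3 (1.55), a neuronal tubulin. It was below Nefl (3.68), a neurofilament, and Camk2b (4.45), a synaptic kinase. Over the 4 steps the list's medians were 0.42, 1.12, 0.37 and 0.35, beside 0.77, 1.41, 0.32 and 0.81 for Eef1a2.

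Eef1a2 also went up relative to the summed TPM of the neuronal list and relative to Tubb3. For each 1000 TPM of the neuronal list there were 6.06 ± 0.21 TPM of Eef1a2 at E12.5, followed by 7.94 ± 0.02, 9.23 ± 0.24, 9.70 ± 0.07 and, at P0, 12.2 ± 0.16 (SD, n = 2 each). No neighbouring stages overlapped. Per 1000 TPM of Tubb3 alone the value went from 20.3 ± 0.25 at E12.5 to 73.4 ± 1.76 at P0. These values depend on the genes they are set against. Tubb3 rose less (1.55) than the median of the list (2.31), and Stmn2 alone held 3949 of the 11598 TPM summed at P0. Of the single genes of the list, 16 rose less than Eef1a2 and 2 rose more, Nefl and Camk2b.

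Many markers of other cells moved over the same stages. A list of progenitor and cell cycle genes fell in all 15 tested members (limma), beside 51.0% of all genes, with a median of -3.78 and a sum of 2845 TPM at E12.5 and 347 at P0. Markers of skeletal muscle, another known site of Eef1a2, were low throughout: the 4 muscle genes in the table, of 14 listed, summed to 4.42 and 4.74 TPM at E12.5 and 0.93 and 0.96 at P0. Nearly all of that sum was Mylpf, a myosin light chain (4.51 and 0.69 TPM), while Myh3, an embryonic myosin (0.06 and 0.23), Ckm and Ttn were at or near 0 at both stages. Erythroid genes (3 of 10 listed) summed to between 4323 and 4494 TPM at E12.5 and between 2.04 and 2.49 at P0. Nearly all of the erythroid sum was Hbb-y (4349 TPM at E12.5 and 2.10 at P0). Other listed globins, among them Hba-a1 and Hbb-bs, are not in the table, so the sum does not cover them. Choroid plexus genes (2 of 5) peaked at E14 with 1405 and 1517 TPM. Vascular genes (3 of 8) summed to 73.2 and 80.6 TPM at E12.5 and 9.10 and 10.9 at P0. Between E14 and E15.5, also the largest step of Eef1a2, the mean erythroid sum went from 1928 to 9.55 TPM. Over that step the choroid plexus sum went from 1461 to 3.86 TPM, and the vascular sum from 46.2 to 7.55, with 18.9 at E17. Whether the tissue taken differed between these stages was not tested. Astroglial genes (6 of 8) summed to 1074 and 1100 TPM at E12.5 and to 1677 and 1710 at P0. Most of the astroglial sum was Fabp7 (731 TPM at E12.5 and 1406 at P0), so the sum says little of the other genes. Gfap went from 0.15 to 26.6 TPM and Aldh1l1 from 0.26 to 13.8, while Aldoc fell from 271 to 126 TPM. In limma 5 of the 6 were called higher and 1 lower, beside 27.1% and 51.0% of all genes. With all values rescaled without the erythroid and choroid plexus lists, a choice made after seeing the data, Eef1a1 changed by -0.04 and Eef1a2 by 3.34. The part of the other lists in the levels of the pair was not tested.

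The genes with profiles most like each member were found by the root mean square distance between centred log2(TPM + 1) profiles over the 10 libraries, among 5440 genes that averaged 10 TPM or more. For Eef1a2 these were Gas7 (distance 0.11, Pearson r 0.996), a protein of neurite outgrowth, Jazf1 (0.11), Stmn2 (0.11), a regulator of microtubules in growing axons, Cnrip1 (0.13), which binds the cannabinoid receptor CB1, and Ndrg4 (0.14). The median gene lay at 1.30. Stmn2 stood at 482.9 TPM at E12.5 and 3949 at P0, far above Eef1a2 in level with nearly the same course. The same 5 genes were nearest without E17 replicate 1.

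For Eef1a1 the nearest were Eif3h (0.04, r 0.952), a subunit of initiation factor eIF3, Pomp (0.04), a proteasome assembly factor, Bag1 (0.05), a co-chaperone, Slc25a17 (0.05), a peroxisomal carrier, and Aimp1 (0.06), a scaffold of the multi-synthetase complex. The median gene lay at 0.30. All genes share the same 10 libraries, so a library that stands apart moves many profiles at once. Without E17 replicate 1, 2 of these 5 (Eif3h and Pomp) remained among the nearest 5, and r with Eif3h went from 0.952 to 0.847 over 9 libraries.

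**Figure D4:**
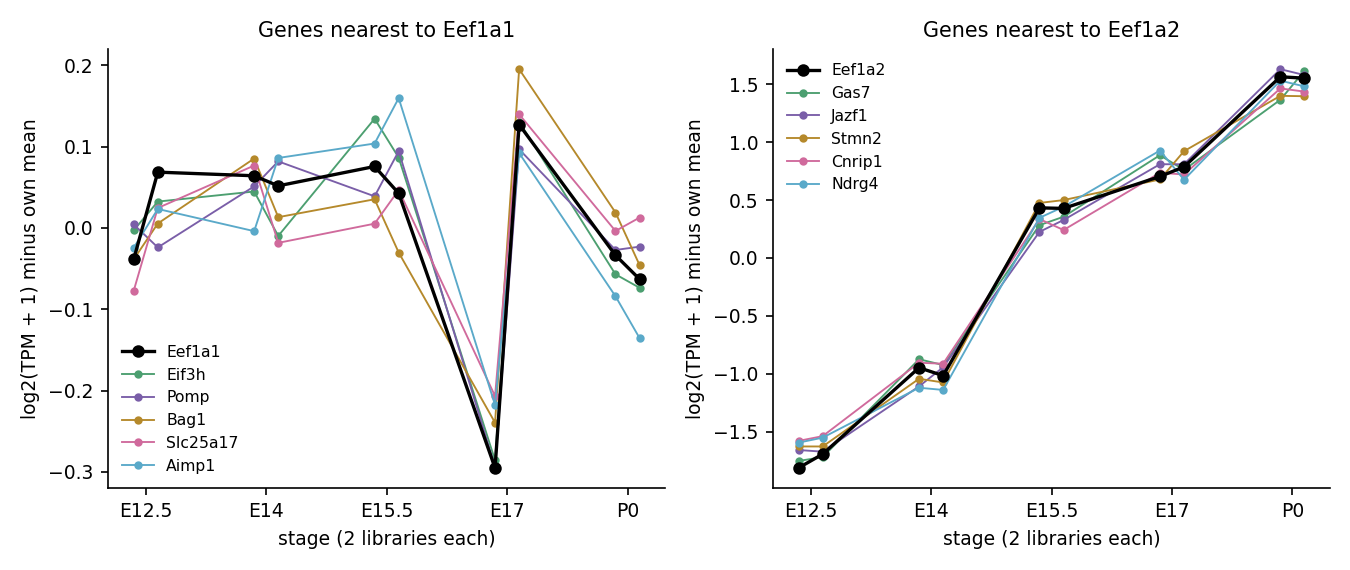
Centred log2(TPM + 1) of Eef1a1 (left) and Eef1a2 (right), in black, and of the 5 genes nearest to each, with 2 libraries per stage. The 5 genes by Eef1a2 climb together from E12.5 to P0, while the Eef1a1 set is level apart from a dip in replicate 1 of E17.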

How the data were processed

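Poly(A) RNA from 10 neocortex libraries, 2 for each of 5 stages, was measured by RNA-seq. The values are TPM deposited by the authors, per the file headers, in 1 table of 6147 genes. The submitters' processing notes name STAR, Subread and GRCm38.p5; for gene lengths, annotation and reads per library the sources used here give nothing, so depth is unknown. These genes held 68.9% to 71.7% of all TPM of a library, and 5990 to 6036 of them reached 1 TPM. Places in an order and shares of all genes refer to the genes of this table and not to the whole transcriptome. Columns were matched to samples by name, with 0 left over.

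Tests used log2(TPM + 1) of the 6048 genes that averaged 1 TPM or more, leaving out 99; a change on this scale understates that of low genes. Limma 3.58.1 (R 4.3.3), with a mean for each stage, a variance trend and 5 residual degrees of freedom, gave p-values adjusted by Benjamini-Hochberg over all genes, called under 0.05. Exact permutation of 2 libraries against 2 cannot give a p below 0.333. In simulated data for E12.5 against P0 (6048 genes), 195 of 200 genes given a log2 change of 1 and 128 of 200 given 0.5 were recovered. There 5.28% of calls were false. The simulation gave each gene the same spread at every stage and changed only these genes. In the data the SD of the log2 replicate difference ran from 0.09 at E15.5 to 0.28 at E17, and 78.2% of genes were called. The simulated shares may therefore not hold for the calls given here.

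The pair, the gene lists and the tests were chosen with earlier results of these data known. Named genes were the pair, its lists, the highest and lowest of the synthetases and markers, and the 5 nearest profiles among genes of at least 10 TPM, leaving out names beginning with Gm or LOC or ending in Rik. Genes of the lists that are not among the 6147 were not analysed here; they include Eef1b2, Eif5a2 and Gtpbp2. Gene models and windows came from GENCODE M21 transcripts and promoters from RefSeq, read with Python 3.11.15, Biopython 1.88, pandas 2.3.3, numpy 2.4.6 and matplotlib 3.10.9. Alternatives were other pseudocounts, filters and scalings, no variance trend, a replicate block, fewer stages and each library left out.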

Additional observations from a re-analysis of the deposited data

How the results depend on the processing

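The counts of genes called from E12.5 to P0 (13 of the elongation list, 16 of the synthetases and 4728 of all genes) stayed within 1.5 times under all 20 alternatives. Leaving out each library in turn gave 10 to 13, 13 to 17 and 4218 to 5132. It gave -0.12 to -0.01 for the Eef1a1 change, 3.26 to 3.37 for Eef1a2 and 3.46 to 3.48 for their log2 ratio. The Eef1a1 change was 0.21 with median-of-ratios scaling, against -0.06. The Eef1a2 change, 3.31, was 3.40 with a pseudocount of 0.1 TPM, 2.70 with 10 TPM, 3.51 with quantile normalization and 3.58 with median-of-ratios scaling. The log2 ratio, 3.47, was 2.76 with 10 TPM and 3.62 with quantile normalization. A larger pseudocount shrinks the change of a low gene by construction. Median-of-ratios scaling divides all genes of a library by 1 factor. With it the log2 ratio stayed at 3.47 by construction, and the median gene changed by -0.01 from E12.5 to P0, against -0.27. For quantile normalization the cause was not tested.

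Over 10 pairs of stages, the correlation between the deviations of same-numbered libraries ran from -0.37 to 0.11, above 0.1 in 1. The lowest were E12.5 with E17 (-0.37) and E12.5 with E14 (-0.28), where same-numbered libraries tended to deviate in opposite directions. With the replicate number as a block, 13, 15 and 4676 genes were called, and the member values stayed at -0.06, 3.31 and 3.47. Depth is unknown, and 2 libraries per stage limit precision; the median SE of the change from E12.5 to P0 was 0.11 (log2).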

Other observations

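The aminoacyl-tRNA synthetases, which charge the tRNAs that eEF1A carries, and their scaffold proteins changed in both directions. Vars and Eef1e1 are also in the elongation list. Of 23 tested, 5 rose and 11 fell from E12.5 to P0 in limma, with a median of -0.20, beside 27.1% and 51.0% of all genes. The 5 became 2 without E12.5 replicate 1 or P0 replicate 2 and 3 without E12.5 replicate 2; with median-of-ratios scaling 9 rose and 9 fell, with a median of 0.07. The lowest were the synthetases for threonine, Tars (-1.08), and isoleucine, Iars (-1.03), and the highest were Yars (0.49), for tyrosine, and Eef1e1 (0.41). From E17 to P0, 8 rose and 0 fell in limma, with 11 at an unadjusted p under 0.05 and a median of 0.17, beside 12.9% rising and 28.8% falling among all genes. With only the 4 libraries of these stages 3 rose, and with median-of-ratios scaling 12. Without E17 replicate 2 that step gave 13 higher and 2 lower, and without either library of P0 it gave 7 and 6 higher.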
